A study of Rattus norvegicus with 300 samples.

Results

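The ubiquitin-conjugating enzyme genes are the 29 rows, of 17337 gene symbols in the count table, whose symbol starts with Ube2. They were followed in RNA from punched brain tissue of male Long Evans rats, 60 days old, that took 1 of 6 treatments in the drinking water for 3 weeks. FT rats took 13 mg/kg/day, Bupropion rats 15 mg/kg/day and Desipramine rats 7.5 mg/kg/day. The labels leave FT unexplained, and of the drugs in the protocol only fluoxetine lacks a group named after it. Probiotics rats took a probiotic, whose dose the labels give in forms that disagree, and Maltodextrin rats drank 10 g/L of maltodextrin, the group that Probiotics is set against. Control rats drank water. Each drug was set against Control, Probiotics against Maltodextrin, and Maltodextrin against Control.

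The series holds 300 libraries, 5 in each of 60 combinations of treatment and region. Of the 10 regions, 5 carry the main results, in 150 libraries: CGC, mPOA, NACShell, PLC and Raphe, named as the labels abbreviate them. In the other 5 regions whole groups stood apart from their labels, so those regions enter only where they are named. Within the 5 regions, FT libraries of mPOA stood apart in Pomc and those of NACShell in Oxt (up to 259 CPM), and values without both regions are given where they end a call. Total counts in the 150 libraries ran from 571357 to 18192931, with a median of 9232563. The shallowest were Desipramine replicate 1 in NACShell, at 571357 counts, and in CGC, at 841455. The other Desipramine libraries of NACShell and CGC held 6197813 to 8360470 counts. The part of that depth in the Desipramine calls of CGC and NACShell alone was not tested. The FT libraries numbered replicate 1 were shallow in all 5 regions, at 3797720 to 4807308 counts. Region markers sat where their labels put them: Tph2, which makes serotonin, ran from 458 to 1043 CPM in Raphe and reached at most 6 CPM in the other 4 regions, and the dopamine receptor gene Drd1 ran from 165 to 306 CPM in NACShell and reached at most 55.3 CPM elsewhere. Oxt, which encodes oxytocin, was at 276 CPM or more in all mPOA libraries, and Slc17a7, the vesicular glutamate transporter of cortical neurons, at 346 or more in CGC and 332 or more in PLC, against at most 287 in the other 3 regions. The labels do not say how many rats made up a pool of punches. Replicate counts therefore refer to libraries, or to sums of them, and the p-values reflect spread among these libraries, which may be partly technical.

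Ubiquitin is a small protein that cells attach to other proteins in a relay. An activating enzyme (E1) charges it, a conjugating enzyme (E2) carries it, and a ligase (E3) picks the substrate. The E2 and E3 together set the kind of chain, and the chain sets the outcome. Chains linked through lysine 48 send proteins to the proteasome, while chains linked through lysine 63 act in signalling, endocytosis and DNA repair. Some members carry other modifiers: Ube2m and Ube2f carry NEDD8, Ube2l6 carries the interferon-induced ISG15, and Ube2z can carry FAT10. In neurons these pathways are known for controlling synaptic protein turnover. Roles given here are those known from human, mouse or yeast enzymes.

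The promoters of 4 members are printed to show the DNA around their start sites, because Ube2v1 and Ube2n moved furthest downward and Ube2m and Ube2d1 furthest upward in FT. The windows run from 250 bases before to 50 bases after the annotated start, in RefSeq's rat build GRCr8, 5′ to 3′ on the gene's strand. They lie at chr3:176759125-176759424 on the minus strand for Ube2v1, chr7:32040959-32041258 on the plus strand for Ube2n, chr1:82738249-82738548 on the minus strand for Ube2m and chr20:17308209-17308508 on the plus strand for Ube2d1. Capitals mark the GC box GGGCGG and the ETS core CCGGAAG, each read on both strands, so that the reverse complements CCGCCC and CTTCCGG also count.
Ube2v1: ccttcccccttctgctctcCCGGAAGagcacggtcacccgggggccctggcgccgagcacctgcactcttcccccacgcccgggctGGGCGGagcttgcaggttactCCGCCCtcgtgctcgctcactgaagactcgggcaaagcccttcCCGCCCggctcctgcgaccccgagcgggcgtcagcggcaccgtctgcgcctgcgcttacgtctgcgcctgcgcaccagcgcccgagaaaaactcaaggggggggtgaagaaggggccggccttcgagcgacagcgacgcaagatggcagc
Ube2n: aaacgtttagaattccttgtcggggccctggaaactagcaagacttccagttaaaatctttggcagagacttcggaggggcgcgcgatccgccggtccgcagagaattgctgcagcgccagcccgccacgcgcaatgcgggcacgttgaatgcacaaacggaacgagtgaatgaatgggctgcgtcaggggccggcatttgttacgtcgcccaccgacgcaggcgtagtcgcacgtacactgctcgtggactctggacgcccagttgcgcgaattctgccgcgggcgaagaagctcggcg
Ube2m: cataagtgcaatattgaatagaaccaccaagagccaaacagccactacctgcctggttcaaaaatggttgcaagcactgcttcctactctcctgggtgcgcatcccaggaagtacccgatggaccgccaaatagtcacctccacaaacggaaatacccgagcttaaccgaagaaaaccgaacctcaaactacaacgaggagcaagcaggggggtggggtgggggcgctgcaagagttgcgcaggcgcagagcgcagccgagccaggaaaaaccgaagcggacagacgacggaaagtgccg
Ube2d1: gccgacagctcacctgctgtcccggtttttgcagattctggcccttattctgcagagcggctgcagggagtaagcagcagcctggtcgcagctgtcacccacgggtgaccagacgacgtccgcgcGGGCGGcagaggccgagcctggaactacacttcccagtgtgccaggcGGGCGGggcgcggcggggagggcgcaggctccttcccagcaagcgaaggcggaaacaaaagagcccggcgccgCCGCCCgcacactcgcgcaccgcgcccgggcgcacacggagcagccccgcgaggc
The windows of Ube2v1 and Ube2d1 hold 3 GC boxes each, and that of Ube2v1 also holds 1 ETS core. Those of Ube2n and Ube2m hold none of the 7 motifs searched on both strands. Members that fell and members that rose are therefore found both with and without GC boxes. Promoter windows were found for 25 members, 26 windows in all, with a median GC content of 68.3%, against 51.7% over 33469 rat promoters. The GC box stood in the windows of 18 of the 25 members, against 33.1% of all promoters, and the ETS core in 7 of 25, against 8.75%. The CCAAT box CCAAT was in 7 of 25, against 37.5%, and the TATA box TATAAA in 2 of 25, against 14.2%. The other motifs were rarer: the E-box CACGTG was in 1 of 25 members, against 6.42% of all promoters, the NRF1 motif GCGCATGC in 1, against 2.47%, and the cAMP response element TGACGTCA in 0, against 1.83%. A match is a run of letters and was not tested as a binding site.

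Over the 5 regions together, all 29 members were among the 13951 genes tested. Counts were summed over regions within each treatment replicate and compared with edgeR's quasi-likelihood test, and a gene was called at a Benjamini-Hochberg adjusted p under 0.05 over all genes tested. In FT against Control, 9 members were higher and 13 lower, where 28.3% and 30.4% of all genes were called in those directions. In Bupropion against Control, 12 were higher and 7 lower, against 24.3% and 26.2% of all genes. With library totals scaled, those 2 comparisons leaned opposite ways, with median log2 changes over the members of -0.10 in FT and 0.08 in Bupropion. Without scaling, both had more members called higher than lower. In Desipramine against Control, 10 were higher and 11 lower, against 30.9% and 35.5% of all genes, with a median of -0.05. In Probiotics against Maltodextrin, 4 were higher and 14 lower, against 25.7% and 25.8% of all genes, with a median of -0.08. In this fit Maltodextrin against Control moved the fewest members, with 3 higher and 7 lower, against 26.1% and 27.2% of all genes. The median was -0.04. More members were called there without scaling, and with those groups fitted alone, as given below. Medians over all genes lay between -0.03 and 0.02 in these 5 comparisons. The drug comparisons share their Control libraries, and Maltodextrin libraries serve in 2 comparisons, so agreement between comparisons is not independent.

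**Figure D1:**
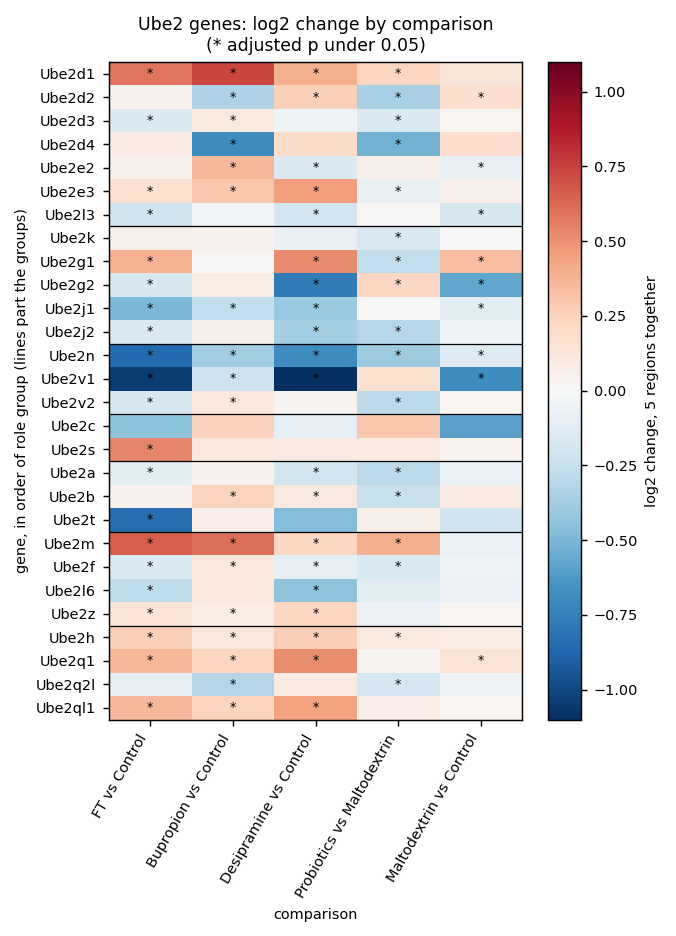
Log2 change of the Ube2 genes described (rows, in order of role) in the 5 comparisons (columns), over CGC, mPOA, NACShell, PLC and Raphe together with 5 replicates per group; red is higher in the first-named treatment, and stars mark adjusted p under 0.05. Ube2v1 and Ube2n are the deepest blue in FT (-1.04 and -0.86), Ube2d1 and Ube2m are red under every drug, and 10 of the starred values change sign when library totals are not scaled, as named in the text.

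The scaling of library totals sets where 0 lies on this scale. Without TMM scaling, the median of all genes moved up by 0.18 in FT against Control and by 0.22 in Desipramine against Control, and the members' calls then split 14 higher and 5 lower in FT and 17 higher and 7 lower in Desipramine. The splits without scaling were 10 and 7 in Bupropion, 10 and 8 in Probiotics against Maltodextrin, and 12 and 3 in Maltodextrin against Control. The called members whose sign turned without scaling are named below with the value they then had.

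Cell type markers also differed in each of the 5 comparisons. All 7 oligodendrocyte markers were called lower in FT (median log2 change -0.91) and in Desipramine (-0.78), and their summed level ran from 19901 to 31216 TMM-scaled CPM in FT replicates and 21032 to 24862 in Desipramine, against 45976 to 55731 in Control. In each of the other comparisons 4 of the 7 were called lower. Without scaling, 6 of the 7 were lower in FT and in Desipramine. In Probiotics against Maltodextrin 3 were then lower and 1 higher. Microglial markers, of which 6 of 7 were called lower in FT and 4 of 7 in Desipramine, summed to 306 to 431 CPM in FT and 308 to 336 in Desipramine, against 444 to 465 in Control. Without scaling, 3 of the 7 were called lower and 1 higher in FT, and 4 lower and 2 higher in Desipramine. Maltodextrin replicates stood below that Control range, at 368 to 394 CPM, with 4 of the 7 lower and 1 higher without scaling. Bupropion replicates stood above that Control range, at 490.2 to 522 CPM, with 2 of the 7 called higher and 2 lower. Of 6 preoptic and hypothalamic markers, 5 were called higher in FT and 5 in Bupropion, with sums of 189.9 to 747 CPM in FT replicates and 421 to 758 in Bupropion, against 212 to 298 in Control. In Desipramine 2 of these were called higher and 4 lower, at 142 to 276 CPM. In Probiotics against Maltodextrin 5 of the 6 were called higher, at 194 to 399 CPM in Probiotics replicates, against 86.5 to 142 in Maltodextrin. Excitatory neuron markers, 5 of 7 called higher and 2 lower, summed to 582 to 598 CPM in Probiotics, against 506 to 525 in Maltodextrin, and choroid plexus markers, 3 of 5 higher, to 68.5 to 72.9 CPM in Probiotics, against 32.1 to 48.4 in Maltodextrin. In Maltodextrin against Control 5 of the 6 preoptic and hypothalamic markers were called lower, as were 4 of the 7 excitatory neuron markers, with 2 of those higher. The Maltodextrin sums just given lay below the Control ranges of 212 to 298 CPM for the preoptic and 618 to 647 for the excitatory markers. Excitatory sums also lay below their Control range in FT (521 to 585 CPM), Bupropion (547 to 568) and Desipramine (505 to 547). Astrocyte sums were 4227 to 4599 CPM in Control. They were 3158 to 3456 in FT, 3902 to 4041 in Bupropion, 3324 to 3457 in Desipramine and 3707 to 3940 in Maltodextrin. Endothelial and mural sums were 240 to 251 CPM in Control. They were 176 to 188 in FT, 207 to 224 in Bupropion and 191 to 198 in Desipramine. In Maltodextrin they overlapped Control, at 239 to 250, and Probiotics stood below that, at 209 to 215. Serotonin neuron sums were 274 to 315 CPM in Control. They were 218 to 254 in FT, 192 to 206 in Bupropion and 199 to 230 in Maltodextrin, and overlapped Control in Desipramine. GABAergic neuron sums were 637 to 674 CPM in FT and 648 to 708 in Bupropion, against 721 to 747 in Control. Striatal projection neuron sums were 448 to 470 CPM in Control. They were 358 to 387 in FT, 387 to 433 in Bupropion and 483 to 510 in Maltodextrin. Choroid plexus sums were 48.2 to 69.2 CPM in Bupropion, against 31.5 to 36.1 in Control. Oligodendrocyte precursor sums overlapped Control under every drug. The part of these markers in the results was not tested. Since the samples are bulk tissue, fewer cells of a type and less RNA per cell cannot be told apart.

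Ube2v1 and Ube2n, which act in building lysine 63 chains, fell furthest of the members described in FT, while their relative Ube2v2 moved less. Of the 3 measured members that build these chains, 3 were lower in FT, 2 in each of the other comparisons, and 1 was higher in Bupropion. Lower calls covered 30.4% of all genes in FT and 25.8% to 35.5% in the other comparisons. Higher calls covered 24.3% in Bupropion. Ube2n is the enzyme dedicated to lysine 63 chains. It works only in a pair with Ube2v1 or Ube2v2, which lack a catalytic cysteine and position the acceptor ubiquitin. Ube2v1 stood at 70.2, 99.3, 92.2, 98.3 and 113 TMM-scaled CPM in FT replicates 1 to 5 and at 82.4, 87.7, 87.9, 96.9 and 101 in Desipramine, against 194, 192, 192, 191 and 194 in Control, where CPM is the gene's count scaled to a common library total, averaged over the 5 regions. It stood at 178, 159, 162, 159 and 177 CPM in Bupropion, at 135, 146, 133, 134 and 137 in Probiotics and at 113, 118, 122, 119.8 and 129 in Maltodextrin. Every FT, Bupropion, Desipramine and Maltodextrin replicate was below every Control replicate, and FT replicate 1 was the lowest of its group. The log2 change was -1.04 (SE 0.0718, adjusted p = 3.51e-13) in FT, -1.09 (SE 0.0718, adjusted p = 1.58e-13) in Desipramine and -0.68 (SE 0.0711, adjusted p = 7.98e-09) in Maltodextrin, each against Control, which puts FT at 0.485 and Desipramine at 0.468 times the Control level. In Bupropion it was smaller, -0.23 (SE 0.0705, adjusted p = 0.00755), and it was no longer called without Raphe (-0.12, adjusted p = 0.142) or over all 10 regions (-0.10, adjusted p = 0.304). Probiotics replicates were all above Maltodextrin replicates, with a log2 change of 0.17 (SE 0.0710, adjusted p = 0.0502) that was not called.

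The catalytic partner followed. Ube2n stood at 83.4, 100.4, 95.7, 95.4 and 103 CPM in FT replicates and 106, 105, 111, 107 and 114 in Desipramine, against 176, 167, 174, 172 and 172 in Control. Bupropion replicates held 132, 131, 128, 130.1 and 142 CPM of Ube2n. Probiotics replicates held 119, 127, 114, 121 and 114 CPM, against 156, 151, 156, 156 and 156 in Maltodextrin. No replicate of a drug group reached the Control range, and no Probiotics replicate reached the Maltodextrin range. The log2 change was -0.86 (SE 0.0428, adjusted p = 3.93e-16) in FT, -0.38 (SE 0.0422, adjusted p = 1.16e-08) in Bupropion and -0.69 (SE 0.0426, adjusted p = 5.42e-14) in Desipramine. It was -0.39 (SE 0.0425, adjusted p = 6.24e-09) in Probiotics against Maltodextrin and -0.14 (SE 0.0422, adjusted p = 0.00517) in Maltodextrin against Control, and the last was lost without mPOA and NACShell (-0.08, adjusted p = 0.121) and without scaling (-0.07, adjusted p = 0.161). Ube2v2, the other partner, moved less: -0.17 (SE 0.0391, adjusted p = 3.19e-04) in FT, which turned to 0.03 without scaling and was not called without Raphe (-0.09, adjusted p = 0.0821), 0.12 (SE 0.0390, adjusted p = 0.0144) in Bupropion, and -0.28 (SE 0.0391, adjusted p = 4.79e-07) in Probiotics. Without Raphe the Bupropion value was 0.21. Its Bupropion and Probiotics values turned with the regions used, to -0.32 and 0.31 over all 10 regions. In Desipramine and Maltodextrin against Control, Ube2v2 was not called, at 0.03 and 0.02.

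**Figure D2:**
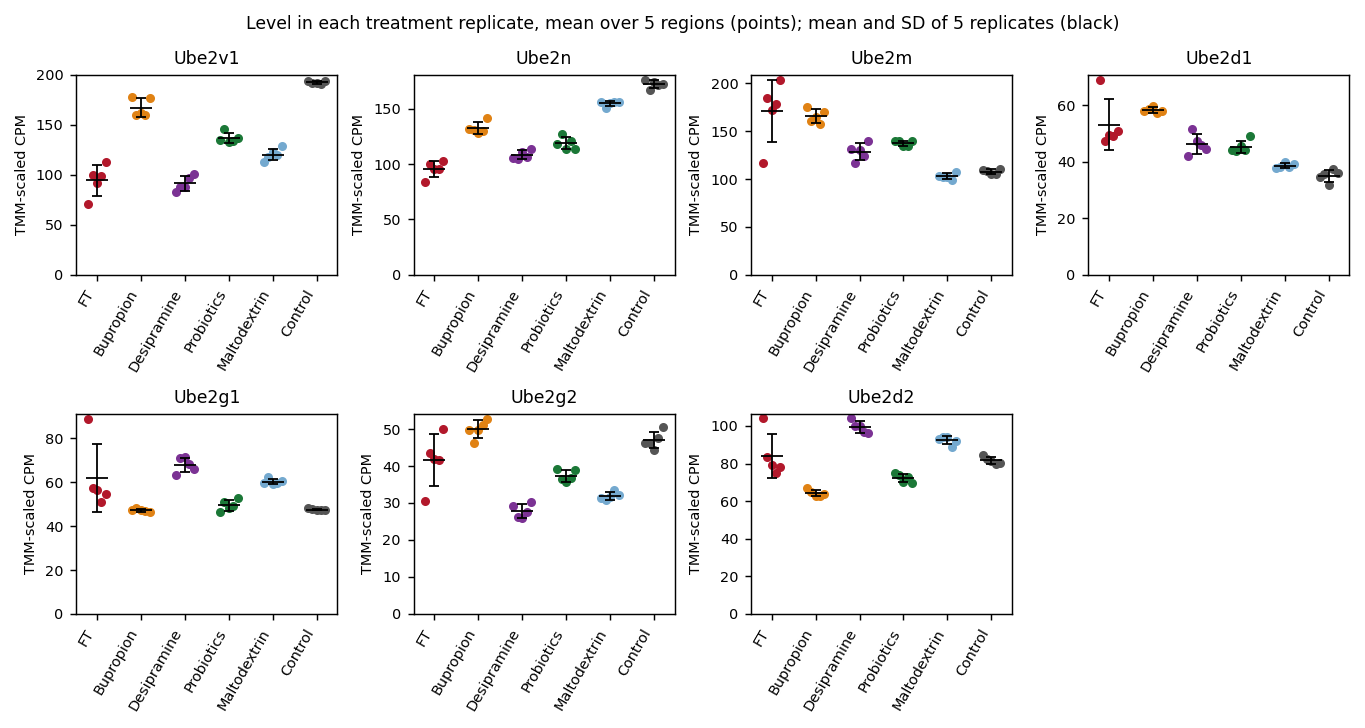
Level of Ube2v1, Ube2n, Ube2m, Ube2d1, Ube2g1, Ube2g2 and Ube2d2 (TMM-scaled CPM, averaged over 5 regions) in each of the 5 replicates of the 6 treatments, with Control at the right; points are replicates, and black lines are the mean and SD. FT and Desipramine replicates of Ube2v1 lie between 70.2 and 113, below all Control replicates at 191 to 194, while those of Ube2d1 lie at 41.9 to 69.1, above Control at 31.7 to 37.3.

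The fall of Ube2v1 and Ube2n was not even across the brain. In Raphe, Ube2v1 stood at 30.2, 52.3, 46.6, 45.6 and 55.6 CPM in FT libraries, against 168, 163, 165, 145 and 163 in Control libraries. The FT libraries there were all below 56 CPM, and the log2 change was -1.79 (SE 0.0919, adjusted p = 2.69e-17). In NACShell it was -0.40 (SE 0.0873, adjusted p = 2.86e-04), and the FT difference of Ube2v1 varied between the 5 regions (adjusted p = 4.58e-17 for the interaction). For Desipramine, Ube2v1 was lowest in mPOA, at 57.5, 46.1, 63.9, 56.2 and 67.02 CPM in Desipramine libraries, against 178, 166, 175, 182 and 169 in Control libraries, a log2 change of -1.57 (SE 0.0809, adjusted p = 1.54e-16). Bupropion lowered it in Raphe (-0.87, SE 0.0859, adjusted p = 7.9e-10), mPOA (-0.53) and PLC (-0.34), and was not called in CGC (0.13) or NACShell (0.18). Under Probiotics, Ube2v1 was called higher than under Maltodextrin in CGC, at 183, 216, 175, 173 and 196 CPM, against 106, 133, 128, 127 and 125 in Maltodextrin (log2 change 0.60, SE 0.0910, adjusted p = 3.68e-06), and in NACShell (0.50, SE 0.0895, adjusted p = 2.71e-05). Ube2n was called lower in all 5 regions in FT, from -0.52 in CGC to -1.46 in Raphe. In Bupropion the order of these 2 regions differed, with -0.72 in CGC and -0.55 in Raphe. The interaction with region was called for Ube2n in FT (adjusted p = 5.28e-14).

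**Figure D3:**
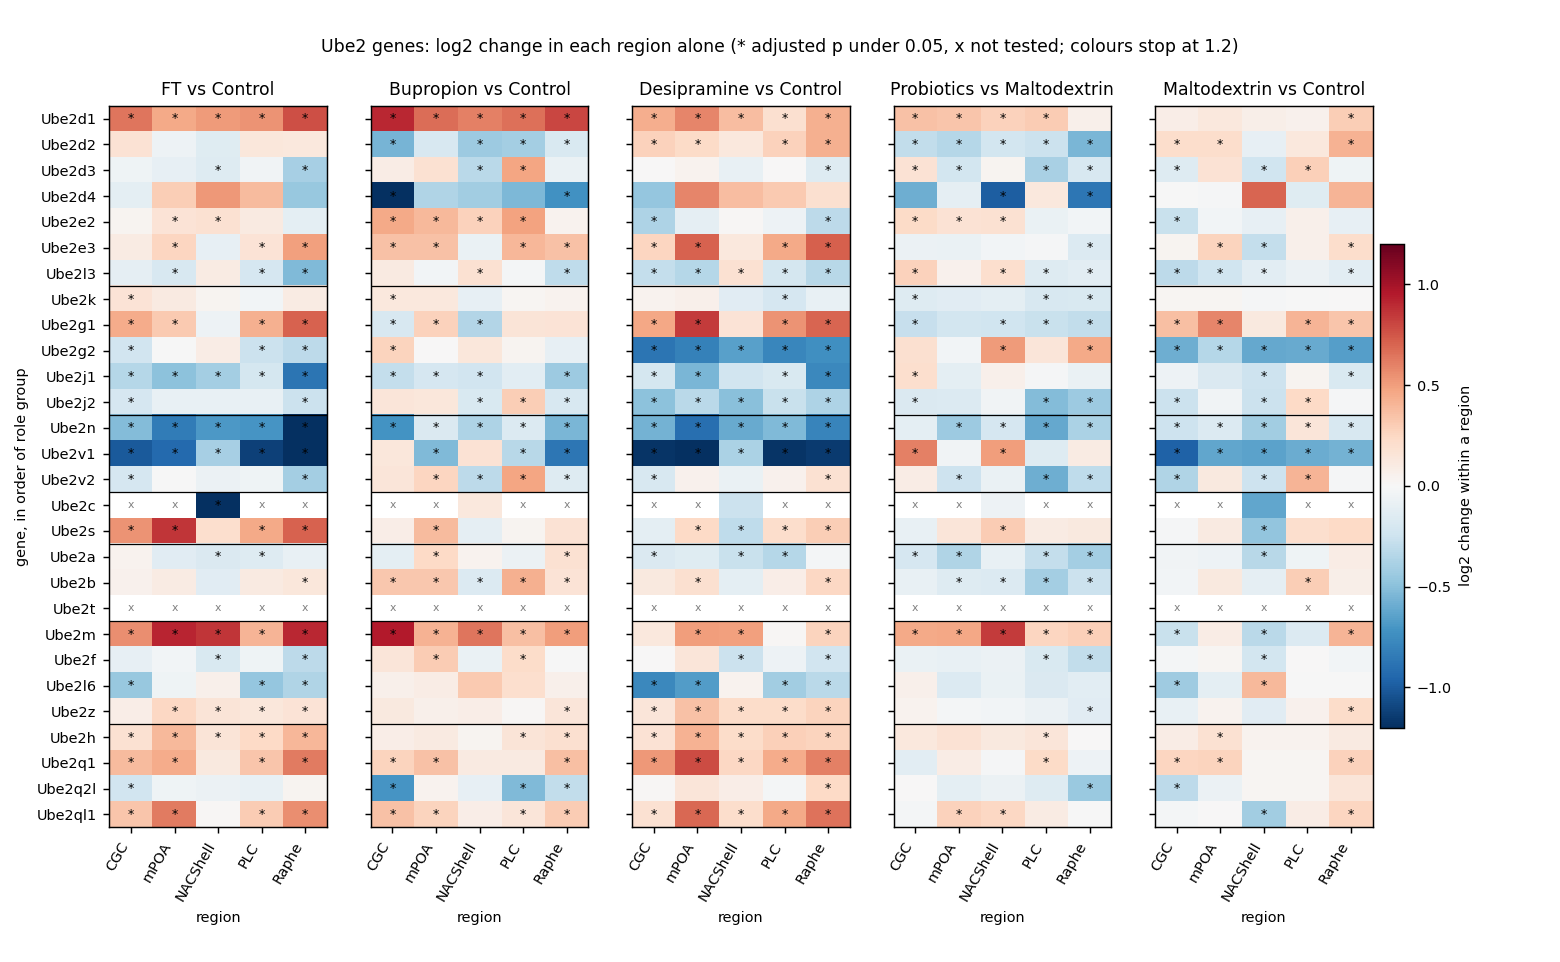
Log2 change of the Ube2 genes described (rows) within each of the 5 regions (columns), in panels for the 5 comparisons, with 5 libraries per group; stars mark adjusted p under 0.05, crosses genes not tested in a region, and colours stop at 1.2. Ube2n is blue in all 5 regions under FT, Bupropion and Desipramine, Ube2m and Ube2d1 are red in all 5 under FT and Bupropion, and Ube2v2 under Bupropion is red in PLC and mPOA and blue in NACShell and Raphe.

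Ube2m, which carries NEDD8 to most cullins and so switches on cullin-based ligases, rose under every drug. It stood at 116, 185, 172, 179 and 204 CPM in FT replicates and 176, 160.3, 165, 158 and 170.4 in Bupropion, against 109, 109, 105, 105 and 111 in Control. Desipramine replicates held 132, 116, 130.4, 124 and 139.8 CPM of Ube2m. All drug replicates were above all Control replicates, but FT replicate 1 was far below the other 4 of its group. Probiotics replicates held 139.7, 139, 134, 135 and 139 CPM, against 103, 103, 102, 98.6 and 108 in Maltodextrin. The log2 change was 0.66 (SE 0.0791, adjusted p = 3.14e-08) in FT, 0.60 (SE 0.0788, adjusted p = 1.96e-07) in Bupropion and 0.40 (SE 0.0791, adjusted p = 9.4e-05) in Probiotics against Maltodextrin. In Desipramine it was 0.22 (SE 0.0790, adjusted p = 0.0138), and without mPOA and NACShell it was 0.10 and not called (adjusted p = 0.223). Ube2m was not called in Maltodextrin against Control over the 5 regions (-0.07), where it was lower in CGC (-0.27, SE 0.0864, adjusted p = 0.0117) and NACShell (-0.33, SE 0.0862, adjusted p = 0.00211) and higher in Raphe (0.41, SE 0.0855, adjusted p = 3.91e-04). In CGC under Bupropion, Ube2m stood at 309, 268, 284, 259 and 284 CPM in Bupropion libraries, against 149, 144, 143, 136 and 135 in Control libraries. In NACShell under Probiotics it stood at 125, 121, 124, 122 and 120.4 CPM in Probiotics libraries, against 68.5, 69.9, 75.3, 69.3 and 73.4 in Maltodextrin libraries. Neither pair overlapped, and those rises were 0.95 (SE 0.0849, adjusted p = 3.29e-11) and 0.84 (SE 0.0853, adjusted p = 6.73e-10) on the log2 scale, beside FT rises of 0.91 in mPOA and 0.91 in Raphe.

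Ube2f, the NEDD8 enzyme that serves the cullin Cul5, did not follow Ube2m. Its log2 change was -0.16 (SE 0.0322, adjusted p = 1.31e-04) in FT, which turned to 0.04 without scaling, and -0.10 (SE 0.0319, adjusted p = 0.00635) in Desipramine, which was called at 0.12 without scaling and lost without Raphe (-0.05, adjusted p = 0.189). It was 0.11 (SE 0.0315, adjusted p = 0.00359) in Bupropion, lost over all 10 regions (0.02, adjusted p = 0.658), and -0.16 (SE 0.0322, adjusted p = 8.52e-05) in Probiotics, lost there too (0.01, adjusted p = 0.840). Ube2l6, the ISG15 enzyme, fell in FT (-0.28, SE 0.0641, adjusted p = 4.6e-04, and -0.08, adjusted p = 0.252 without scaling, -0.44 without mPOA and NACShell) and in Desipramine (-0.44, SE 0.0640, adjusted p = 4.79e-07), at a low level of 5.64 ± 0.657 CPM in Desipramine against 7.52 ± 0.371 in Control (mean ± SD, n = 5 replicates each). Ube2z, which takes ubiquitin from the E1 enzyme Uba6, rose in Desipramine, at 98.4, 97.01, 95.7, 96.3 and 98.7 CPM, against 82.9, 85.5, 81.2, 77.5 and 82.1 in Control, with every Desipramine replicate above the Control range. Its log2 change was 0.24 (SE 0.0328, adjusted p = 2.3e-07) in Desipramine, 0.14 (SE 0.0328, adjusted p = 5.81e-04) in FT, lost over all 10 regions (0.07, adjusted p = 0.0565), and 0.08 (SE 0.0327, adjusted p = 0.0349) in Bupropion, which was lost in most settings tried, such as without Control replicate 4 (0.06, adjusted p = 0.134).

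Among the 7 enzymes that attach a first ubiquitin or short chains, 2 were higher and 2 lower in FT, 4 and 2 in Bupropion, 3 and 2 in Desipramine, 1 and 4 in Probiotics against Maltodextrin, and 1 and 2 in Maltodextrin against Control. Of all genes tested, 58.7% were called in either direction in FT, 50.5% in Bupropion, 66.4% in Desipramine, 51.5% in Probiotics and 53.3% in Maltodextrin. Whether this group differs from those shares was not tested. Ube2d1 rose under every drug. The Ube2d family works with many ligases. Ube2d1 stood at 69.1, 47.3, 49.5, 49.1 and 50.96 CPM in FT replicates and 57.9, 58.9, 59.8, 57.2 and 58.04 in Bupropion, against 34.6, 35.7, 31.7, 37.3 and 36.1 in Control. Desipramine replicates held 41.9, 51.7, 47.5, 45.96 and 44.6 CPM, and Probiotics replicates 44.3, 43.9, 45.7, 44.2 and 49.00 CPM, against 37.9, 38.1, 39.9, 38.2 and 39.1 in Maltodextrin. None of these groups overlapped the one it was set against, and FT replicate 1 was the highest of all. The log2 change was 0.59 (SE 0.0650, adjusted p = 5.57e-09) in FT, 0.73 (SE 0.0643, adjusted p = 1.16e-10) in Bupropion, 0.39 (SE 0.0649, adjusted p = 4.65e-06) in Desipramine and 0.24 (SE 0.0650, adjusted p = 0.00292) in Probiotics against Maltodextrin. In single regions, Bupropion ran from 0.61 in NACShell to 0.90 in CGC, and FT from 0.45 in mPOA to 0.77 in Raphe. Ube2d1 was not called in Maltodextrin against Control (0.13, adjusted p = 0.0931).

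Its relative Ube2d2 did not follow. Ube2d2 stood at 67.1, 65.00, 62.9, 62.5 and 64.00 CPM in Bupropion and 104, 100.1, 99.7, 96.9 and 96.2 in Desipramine, against 84.6, 82.3, 81.2, 79.9 and 80.5 in Control, so the 2 drug groups lie on opposite sides of Control. Probiotics replicates held 74.7, 73.8, 70.2, 72.8 and 69.7 CPM, against 92.9, 94.4, 93.9, 89.03 and 92.05 in Maltodextrin. The log2 change of Ube2d2 was -0.34 (SE 0.0512, adjusted p = 1.85e-06) in Bupropion, 0.27 (SE 0.0511, adjusted p = 3.62e-05) in Desipramine, -0.35 (SE 0.0513, adjusted p = 1.16e-06) in Probiotics against Maltodextrin and 0.18 (SE 0.0511, adjusted p = 0.00350) in Maltodextrin against Control. The last was not called without Raphe (0.12, adjusted p = 0.0655). In FT, Ube2d2 was not called (0.04), with FT replicate 1 at 104 CPM and the other 4 at 74.7 to 83.6. Ube2d4, at 0.627 to 1.73 CPM over all treatment replicates, was called lower in Bupropion (-0.69, SE 0.121, adjusted p = 1.75e-05) and Probiotics (-0.52, SE 0.122, adjusted p = 6.27e-04). Ube2d3 changed little: -0.16 (SE 0.0368, adjusted p = 4.18e-04) in FT (0.03 without scaling, and -0.09, adjusted p = 0.106 without Raphe), 0.11 (SE 0.0367, adjusted p = 0.0149) in Bupropion (lost over all 10 regions, 0.06, adjusted p = 0.109) and -0.16 (SE 0.0368, adjusted p = 6.45e-04) in Probiotics (lost over all 10 regions, -0.01, adjusted p = 0.706). Over 8 regions, those other than ILC and LConly, the Probiotics value turned to 0.005, not called.

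Ube2e2 and Ube2e3 belong to a family with longer amino-terminal tails. Ube2e3 stood at 122, 129.8, 131, 125 and 125 CPM in Desipramine and 113, 114, 117, 117 and 109 in Bupropion, against 93.8, 94.5, 93.7, 91.9 and 94.7 in Control. FT replicates held 106, 105, 104, 100.1 and 106 CPM, so that all 3 drug groups lay above Control. The log2 change of Ube2e3 was 0.46 (SE 0.0261, adjusted p = 1.18e-14) in Desipramine, 0.30 (SE 0.0260, adjusted p = 9.47e-11) in Bupropion and 0.17 (SE 0.0261, adjusted p = 2.44e-06) in FT, where it was 0.10 without Raphe. In Probiotics it was -0.08 (SE 0.0262, adjusted p = 0.00966). That value turned to 0.02 without scaling, not called, and to 0.14, adjusted p = 1.95e-04 over 8 regions, those other than ILC and LConly. Ube2e2 rose in Bupropion and fell in Desipramine. It stood at 50.5, 49.2, 53.1, 48.99 and 50.6 CPM in Bupropion and 36.5, 36.7, 33.99, 36.6 and 35.2 in Desipramine, against 38.7, 39.4, 39.03, 39.8 and 40.5 in Control. Its log2 change was 0.35 (SE 0.0343, adjusted p = 7.73e-10) in Bupropion, -0.16 (SE 0.0349, adjusted p = 1.52e-04) in Desipramine, which turned to 0.05 without scaling, and 0.06 in FT, not called. In Maltodextrin against Control the value of Ube2e2 was -0.08 (SE 0.0347, adjusted p = 0.0444), which was not called in most of the settings tried, such as -0.06, adjusted p = 0.121 with another scaling. Ube2l3, an E2 that works with HECT and RING-in-between-RING ligases such as parkin, stood at 217, 208, 204, 200.3 and 214 CPM in FT, 207, 219, 207, 213 and 208 in Desipramine and 215, 211, 211, 213 and 222 in Maltodextrin, against 244, 238, 238, 240.2 and 244 in Control. All 3 groups lay below Control, with log2 changes of -0.22 (SE 0.0255, adjusted p = 1.24e-08) in FT, -0.21 (SE 0.0254, adjusted p = 1.54e-08) in Desipramine and -0.18 (SE 0.0254, adjusted p = 1.82e-06) in Maltodextrin, but without scaling the first was -0.03 and the second 0.003, neither called. Without Raphe the FT value of Ube2l3 was -0.13.

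The 5 lysine 48 enzymes and those of quality control at the endoplasmic reticulum split by family member, with 1 higher and 3 lower in FT, in Desipramine and in Probiotics against Maltodextrin, 1 higher and 2 lower in Maltodextrin against Control, and 1 lower in Bupropion. The shares of all genes called in either direction were 58.7% in FT, 66.4% in Desipramine and 50.5% in Bupropion. They were 51.5% in Probiotics against Maltodextrin and 53.3% in Maltodextrin against Control, and a difference from them was not tested. Ube2g2 works with membrane ligases that clear misfolded proteins from the endoplasmic reticulum. It stood at 29.1, 26.1, 25.9, 27.6 and 30.4 CPM in Desipramine and 31.4, 30.7, 31.6, 33.6 and 32.3 in Maltodextrin, against 46.3, 46.2, 44.4, 47.5 and 50.4 in Control. Those 2 groups lay far below Control. FT replicates held 30.5, 43.6, 41.8, 41.7 and 50.01 CPM, of which 4 were below the Control range and 1 inside it. The log2 change of Ube2g2 was -0.77 (SE 0.0718, adjusted p = 1.55e-10) in Desipramine and -0.57 (SE 0.0712, adjusted p = 1.87e-07) in Maltodextrin, each against Control. Its FT value, -0.18 (SE 0.0708, adjusted p = 0.0296), was not called without FT replicate 1 (-0.10, adjusted p = 0.0938), without Raphe (-0.14, adjusted p = 0.110), over all 10 regions (-0.05, adjusted p = 0.575) or without scaling (-0.01, adjusted p = 0.934). Probiotics replicates held 39.3, 36.4, 35.6, 36.7 and 38.9 CPM of Ube2g2, above Maltodextrin, with a log2 change of 0.23 (SE 0.0719, adjusted p = 0.00963) that was lost without Raphe (0.17, adjusted p = 0.0651).

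Ube2g1, a relative of Ube2g2 that extends lysine 48 chains, moved upward where Ube2g2 moved downward. It stood at 63.4, 70.9, 71.3, 68.1 and 66.3 CPM in Desipramine and 59.6, 62.4, 59.1, 59.8 and 60.6 in Maltodextrin, against 48.1, 47.99, 47.3, 47.3 and 47.3 in Control. FT replicates held 89.1, 57.6, 56.5, 51.2 and 54.8 CPM, with replicate 1 far above the rest. The log2 change of Ube2g1 was 0.52 (SE 0.0816, adjusted p = 2.1e-06) in Desipramine, 0.34 (SE 0.0816, adjusted p = 8.96e-04) in Maltodextrin and 0.38 (SE 0.0820, adjusted p = 2.16e-04) in FT, each against Control. Without FT replicate 1 the FT value was 0.22, adjusted p = 1.58e-06, and over all 10 regions neither FT (0.13, adjusted p = 0.150) nor Maltodextrin (0.08, adjusted p = 0.434) was called. In Probiotics against Maltodextrin it was -0.27 (SE 0.0818, adjusted p = 0.00624), lost over all 10 regions (-0.16, adjusted p = 0.0831). Bupropion left Ube2g1 uncalled at 0.01.

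Ube2j1 and Ube2j2 are anchored in the membrane of the endoplasmic reticulum. Ube2j1 stood at 17.6, 20.7, 22.1, 21.4 and 21.3 CPM in FT, 23.6, 24.8, 23.2, 24.4 and 25.4 in Bupropion and 24.3, 22.1, 22.9, 21.8 and 22.4 in Desipramine, against 29.5, 28.9, 30.2, 28.8 and 28.2 in Control. All drug replicates lay below Control, with log2 changes of -0.49 (SE 0.0438, adjusted p = 7.26e-11) in FT, -0.27 (SE 0.0426, adjusted p = 5.32e-06) in Bupropion and -0.41 (SE 0.0433, adjusted p = 1.88e-09) in Desipramine. Ube2j1 fell furthest in Raphe, to 20.4 ± 2.08 CPM in FT, against 37.7 ± 2.60 in Control (mean ± SD, n = 5 libraries each). Its Maltodextrin value, -0.12 (SE 0.0429, adjusted p = 0.0162), was lost without Raphe (-0.10, adjusted p = 0.0960) and without mPOA and NACShell (-0.08, adjusted p = 0.130). Ube2j2 stood at 55.9, 56.1, 58.6, 53.4 and 57.3 CPM in Desipramine, against 74.2, 72.5, 69.6, 71.7 and 75.3 in Control, without overlap, a log2 change of -0.38 (SE 0.0409, adjusted p = 3.01e-09). It was -0.16 (SE 0.0408, adjusted p = 0.00136) in FT, turning to 0.03 without scaling, and -0.31 (SE 0.0409, adjusted p = 1.79e-07) in Probiotics, lost over all 10 regions (-0.08, adjusted p = 0.0647). Ube2k, a brain-abundant enzyme that builds lysine 48 chains, was called only in Probiotics against Maltodextrin, at -0.17 (SE 0.0410, adjusted p = 8.57e-04), which was lost without scaling (-0.08, adjusted p = 0.184). In the other 4 comparisons its log2 change lay between -0.08 and 0.05.

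The less studied members Ube2q1 and Ube2ql1, and Ube2h, whose partner is the CTLH ligase complex, were each called higher under all 3 drugs. Ube2q1 stood at 68.1, 75.6, 74.1, 68.6 and 69.1 CPM in Desipramine and 72.3, 61.2, 59.5, 63.9 and 63.6 in FT, against 48.7, 48.8, 49.4, 51.2 and 50.4 in Control. Bupropion replicates held 60.5, 58.3, 58.3, 57.3 and 57.7 CPM and Maltodextrin replicates 55.7, 57.2, 55.2, 55.98 and 55.4 CPM of Ube2q1. All 4 groups lay above Control, with log2 changes of 0.52 (SE 0.0384, adjusted p = 1.73e-12) in Desipramine, 0.37 (SE 0.0385, adjusted p = 2.08e-09) in FT, 0.23 (SE 0.0382, adjusted p = 7.99e-06) in Bupropion and 0.15 (SE 0.0385, adjusted p = 0.00151) in Maltodextrin. Ube2ql1 stood at 133, 124, 128, 121 and 125 CPM in Desipramine, 118, 118, 116, 116 and 127 in FT and 109.8, 108, 112, 110.1 and 112 in Bupropion, against 91.8, 93.9, 93.4, 88.9 and 97.7 in Control. The groups did not overlap, and the log2 changes were 0.44 (SE 0.0306, adjusted p = 4.66e-13), 0.35 (SE 0.0307, adjusted p = 4.5e-11) and 0.24 (SE 0.0305, adjusted p = 9.58e-08) in that order of drugs. Ube2h stood at 113, 91.9, 94.3, 87.8 and 95.4 CPM in FT and 93.02, 102, 96.8, 96.4 and 96.6 in Desipramine, against 77.6, 80.3, 81.6, 79.9 and 81.7 in Control. Its log2 changes were 0.26 (SE 0.0422, adjusted p = 4.31e-06) in FT, 0.27 (SE 0.0422, adjusted p = 1.4e-06) in Desipramine and 0.12 (SE 0.0420, adjusted p = 0.0167) in Bupropion, the last lost over all 10 regions (0.01, adjusted p = 0.870), without scaling (0.11, adjusted p = 0.0975) and without Bupropion replicate 1 (0.11, adjusted p = 0.0523). In Probiotics the value of Ube2h was 0.11 (SE 0.0422, adjusted p = 0.0321), lost when any of 6 replicates was left out, as without Maltodextrin replicate 1 (0.09, adjusted p = 0.0843). Ube2q2l went the other way, at -0.32 (SE 0.0466, adjusted p = 1.18e-06) in Bupropion, where it was -0.50 without mPOA and NACShell, and -0.18 (SE 0.0473, adjusted p = 0.00183) in Probiotics, the Probiotics value lost without Raphe (-0.10, adjusted p = 0.0854).

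Ube2c and Ube2s serve the anaphase-promoting complex, which drives cells out of mitosis. Ube2s, which extends the chains that Ube2c starts, stood at 50.6, 78.4, 69.4, 78.3 and 85.4 CPM in FT replicates, against 50.3, 50.5, 47.8, 46.9 and 55.6 in Control. Of the FT replicates, 4 were above the Control range and replicate 1 was inside it, and the log2 change was 0.54 (SE 0.0783, adjusted p = 7.98e-07). In the other 4 comparisons Ube2s was not called, between 0.04 and 0.12. Ube2c was listed at under 1 CPM in every treatment replicate and was not called over the 5 regions in any comparison. Of 5 genes that mark dividing cells, 1 was called higher and 4 lower in FT, and their sums ran from 11.95 to 15.2 CPM in FT, against 15.5 to 16.6 in Control. Among the enzymes of DNA repair and histone ubiquitination, Ube2a and Ube2b, near-identical partners of the ligase Rad18, moved in different comparisons. Ube2b rose in Bupropion (0.24, SE 0.0391, adjusted p = 5.27e-06) and fell in Probiotics (-0.24, SE 0.0392, adjusted p = 5.26e-06), where it was lost over 8 regions (-0.06, adjusted p = 0.181). Its Desipramine value of 0.09 (SE 0.0391, adjusted p = 0.0339) was lost without Raphe (0.05, adjusted p = 0.259) and turned to -0.07 over all 10 regions, not called. Ube2a fell in Probiotics (-0.29, SE 0.0450, adjusted p = 3.71e-06) and in Desipramine (-0.20, SE 0.0448, adjusted p = 2.29e-04), where the value without scaling was 0.01. Its FT value, -0.12 (SE 0.0449, adjusted p = 0.0267), turned to 0.07 without scaling and was lost without FT replicate 3 (-0.09, adjusted p = 0.0890). Ube2t, the enzyme of the Fanconi repair pathway, stood below 1 CPM and was called in FT (-0.84, SE 0.273, adjusted p = 0.00953), but not without mPOA and NACShell (-0.34, adjusted p = 0.411).

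Few genes kept 1 direction in all of the 5 regions fitted alone, and several members were among them. The members tested in all 5 regions numbered 27, and all genes so tested 11520. FT raised Ube2d1, Ube2h and Ube2m in each region, as it did 6.25% of all genes, and the members it lowered in each region included Ube2j1, Ube2n and Ube2v1, beside 5.56% of all genes. Bupropion raised Ube2d1 and Ube2m in each region, with 2.77% of all genes, and the members it lowered included Ube2n, with 2.85%. Desipramine raised Ube2d1, Ube2h, Ube2q1, Ube2ql1 and Ube2z, with 8.51% of all genes, and the members it lowered included Ube2g2, Ube2j2, Ube2n and Ube2v1, with 11.1%. Probiotics against Maltodextrin raised Ube2m, with 5.76% of all genes, and lowered Ube2d2, with 3.53%. Maltodextrin against Control lowered Ube2g2 and Ube2v1 in each region, with 4.18% of all genes, and the genes it raised in each region, 1.75% of all, did not include a member.

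The size of the change still varied with the region for most members. The difference varied between the 5 regions for 20 of 28 members tested in FT, where 66.7% of all genes tested did so. It varied for 21 of 29 in Bupropion (70.2% of genes), 20 of 28 in Desipramine (62.8%), 18 of 27 in Probiotics against Maltodextrin (54.3%) and 23 of 29 in Maltodextrin against Control (62.6%). Whether the members' shares differ from those of all genes was not tested. Members that were called in opposite directions in different regions include Ube2v2 in Bupropion. In PLC it stood at 674, 647, 655, 728 and 704 CPM in Bupropion libraries, against 459.9, 485, 496, 514 and 494 in Control libraries, a log2 change of 0.47 (SE 0.0562, adjusted p = 3.13e-08). In NACShell it stood at 351, 331, 383, 352 and 353 CPM, against 426, 418, 449, 439 and 455, a log2 change of -0.31 (SE 0.0545, adjusted p = 1.44e-05). Neither pair of groups overlapped, and the interaction had an adjusted p of 4.07e-14. Ube2d2 under Bupropion and Ube2e3 under Desipramine also ranged widely, from -0.55 in CGC to -0.18 in Raphe and from 0.12 in NACShell to 0.72 in Raphe. Ube2c was tested in NACShell alone, where it was called lower in FT, at -1.39 (SE 0.392, adjusted p = 0.00385). It stood there at 1.90, 0.311, 0.391, 0.241 and 0.452 CPM in FT libraries, against 1.47, 1.23, 1.71, 1.08 and 1.66 in Control libraries, so that FT replicate 1 was above the Control range and the other 4 below it.

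Most members differed between Bupropion and each of the other drugs. FT against Bupropion had 8 members higher and 17 lower, where 56.9% of all genes differed in either direction. Bupropion against Desipramine had 17 higher and 9 lower (69.3% of genes). FT against Desipramine had 8 higher and 9 lower, a share near the 53.5% of all genes, and the 17 called fell to 8 with those groups fitted alone and to 13 without Raphe. Without scaling the splits were 11 higher and 5 lower in FT against Bupropion, 5 and 11 in Bupropion against Desipramine, and 7 and 11 in FT against Desipramine, with the median of all genes shifted by 0.20, -0.23 and -0.03 in that order. Ube2v1 separated Bupropion from both other drugs, at -0.82 (SE 0.0715, adjusted p = 8.16e-11) in FT against Bupropion and 0.86 (SE 0.0715, adjusted p = 8.71e-12) in Bupropion against Desipramine. Between FT and Desipramine the difference in Ube2v1 was within its error, at 0.05 (SE 0.0717, adjusted p = 0.586). Ube2g2 set Desipramine apart, at 0.59 (SE 0.0726, adjusted p = 1.01e-07) in FT against Desipramine and 0.85 (SE 0.0717, adjusted p = 1.37e-11) in Bupropion against Desipramine. Ube2m was lower in Desipramine than in the other drugs, at 0.43 (SE 0.0790, adjusted p = 3.6e-05) in FT against Desipramine and 0.38 (SE 0.0788, adjusted p = 9.05e-05) in Bupropion against Desipramine, while FT and Bupropion were at 0.05 (SE 0.0785, adjusted p = 0.599). Ube2d2 was highest in Desipramine, with -0.61 (SE 0.0513, adjusted p = 1.28e-11) in Bupropion against Desipramine and -0.22 (SE 0.0513, adjusted p = 5.68e-04) in FT against Desipramine. These contrasts compare the drugs at the doses given, which differ.

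In Control rats the regional levels of 27 of 28 members tested differed between the 5 regions, where 94.5% of all genes did. Ube2d4 was the exception, with an adjusted p of 0.059. Ube2c had the widest range, at 1.47, 1.23, 1.71, 1.08 and 1.66 CPM in NACShell libraries and at most 0.598 CPM in the Control libraries of the other 4 regions. Its neighbours below NACShell could not be ordered, with CGC against mPOA at -0.06 (SE 0.571, adjusted p = 0.935). Ube2t, another low-count member, averaged 0.985 ± 0.247 CPM in NACShell and 0.212 ± 0.173 in mPOA. Ube2g1 stood at 62.2, 61.96, 67.3, 59.4 and 59.8 CPM in NACShell and 23.8, 28.9, 25.6, 28.1 and 27.2 in mPOA, its highest and lowest regions, with Raphe at 45.02 ± 3.07. PLC (53.4 ± 1.93) and CGC (50.7 ± 1.58) came next and were not called different from each other, at -0.07 (SE 0.0514, adjusted p = 0.309). Ube2ql1 stood at 122, 125, 134, 119.7 and 133 CPM in CGC and 123, 122, 121, 118 and 138 in PLC, not called different (0.03, SE 0.0419, adjusted p = 0.649). It was 82.5 ± 2.66 CPM in Raphe, 76.1 ± 3.79 in NACShell and 55.9 ± 3.31 in mPOA, and the first 2 of these were not called different (-0.08, SE 0.0458, adjusted p = 0.100).

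Ube2l6 ran in another order from those genes. It was at 9.85, 9.88, 11.1, 9.26 and 11.3 CPM in mPOA and 9.82, 9.40, 10.4, 8.58 and 10.2 in Raphe, not called different (0.13, SE 0.105, adjusted p = 0.302). CGC (6.93 ± 0.968) and PLC (6.03 ± 1.01) were next and not called different (0.19, SE 0.117, adjusted p = 0.210), and NACShell was lowest at 4.65 ± 0.526 CPM. Ube2m stood at 146, 143, 143, 144 and 156 CPM in PLC and 149, 144, 143, 136 and 135 in CGC, not called different (-0.04, SE 0.0387, adjusted p = 0.457). NACShell (90.01 ± 2.82), mPOA (83.1 ± 2.60) and Raphe (77.8 ± 5.19) followed, and each step among those 3 was called, with NACShell against mPOA at 0.11. The order of regions held across treatments more often for some genes than for others: NACShell was the top region for Ube2c in 6 of 6 treatments and for Ube2t in 5, while it was top for Ube2g1 in Control alone. The narrowest range was that of Ube2z, 0.18 on the log2 scale. Every value here is a level of 1 gene across regions, and levels of different genes were not compared, since transcript lengths were not used here.

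**Figure D4:**
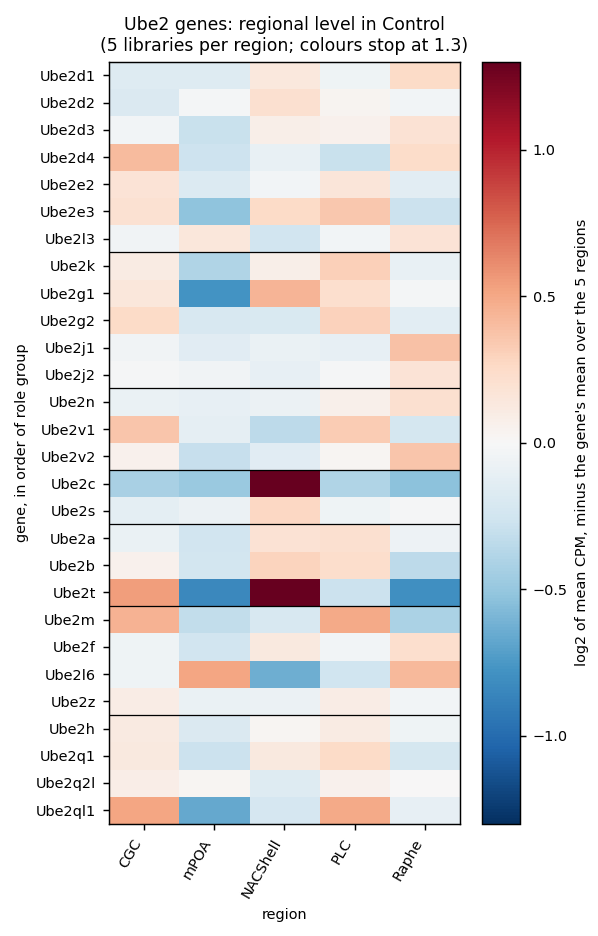
Level of the Ube2 genes described (rows) in the 5 regions (columns) of Control rats, as log2 of the mean of 5 libraries minus the gene's own mean over regions; colours stop at 1.3. Ube2c and Ube2t stand out in NACShell, Ube2ql1 and Ube2m are highest in CGC and PLC, and Ube2g1 is lowest in mPOA.

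The leading members were also followed in the 5 regions where groups stood apart. These tallies over all 10 regions include groups that go against their labels. The share of all genes called alike in 10 of 10 was not counted, so the tallies carry no reading. Counting all 10 regions alone, Ube2n was called lower in 10 of 10 under FT and under Desipramine, and Ube2m was called higher in 10 of 10 under FT and under Bupropion. Ube2d1 was called higher in 10 of 10 under Bupropion, in 9 under FT and in 9 under Desipramine. Ube2v1 was called lower in 8 and higher in 1 under FT, the exception being LConly, where it stood at 66.6, 117, 116, 125 and 137 CPM in FT libraries, against 91.7, 81.9, 89.3, 76.7 and 64.7 in Control libraries. There 4 of the 5 FT libraries were above the Control range. Control ILC libraries stood far above every other group in Ube2n, at 498, 453, 431, 450.2 and 447 CPM, against 65.4, 93.5, 83.4, 78.1 and 72.7 in FT. FT and Control libraries of ILC and LConly are among those that go against their labels, so these values are given with no reading.

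**Figure D5:**
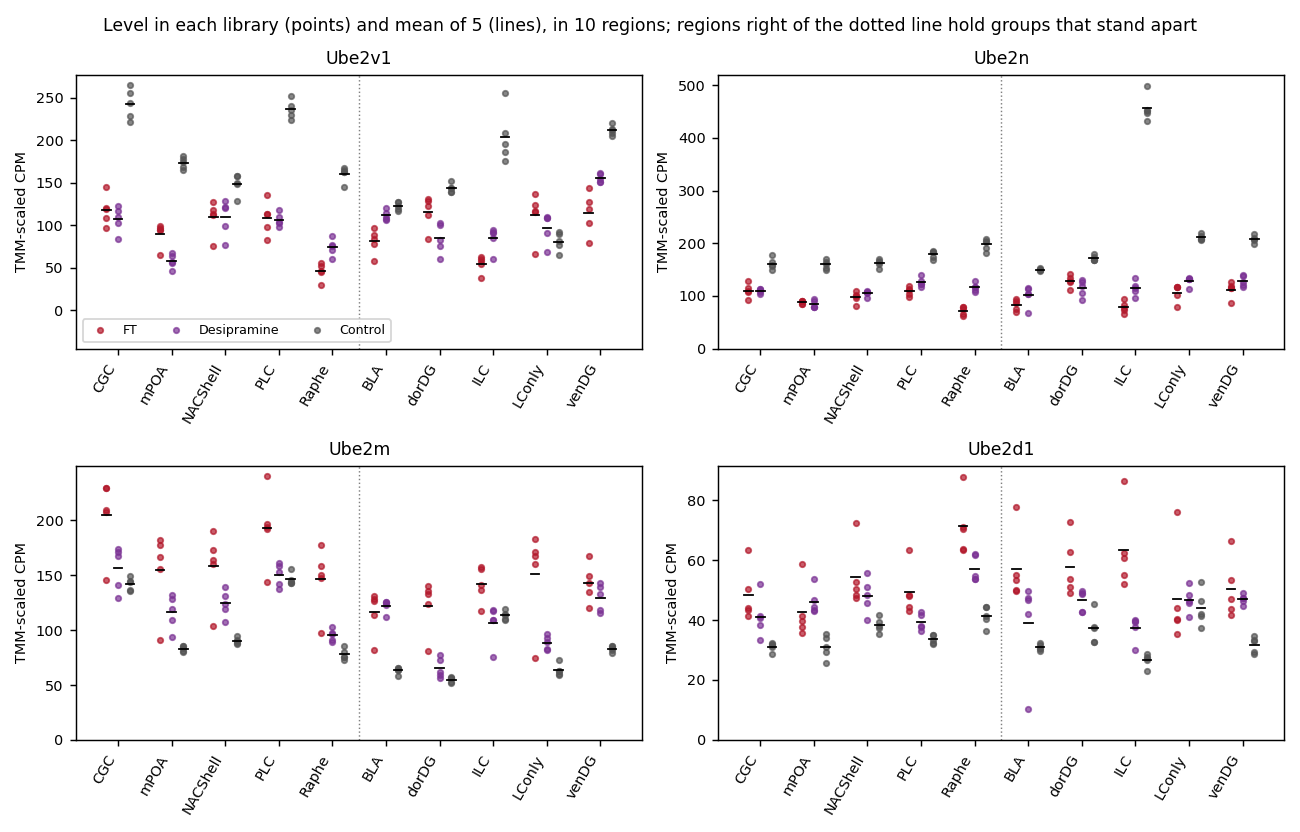
Level of Ube2v1, Ube2n, Ube2m and Ube2d1 (TMM-scaled CPM) in each library (points) of FT, Desipramine and Control in 10 regions, with the mean of 5 libraries as a line; regions right of the dotted line hold groups that stand apart. FT and Desipramine libraries of Ube2n lie below Control in all 10 regions, and Ube2v1 does so in the 5 regions on the left.

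Taking all 10 regions together also changed the size of several called values by over 1.5 times without ending the call. Under FT, Ube2h was then at 0.13, Ube2e3 at 0.08, Ube2f at -0.31, Ube2l6 at -0.47 and Ube2v2 at -0.61. Under Bupropion, Ube2e2 was at 0.09, Ube2n at -0.62, Ube2b at 0.13, Ube2e3 at 0.19, Ube2q1 at 0.14, Ube2ql1 at 0.13 and Ube2q2l at -0.13. Under Desipramine, Ube2g1 was at 0.21, Ube2h at 0.17, Ube2e2 at -0.41 and Ube2f at -0.24. The rises named under these drugs were smaller over 10 regions than over 5, and Ube2f, Ube2l6 and Ube2v2 under FT fell further. In Probiotics against Maltodextrin, Ube2n was at -0.26, Ube2b at -0.10, Ube2h at 0.17 and Ube2q2l at -0.37, and in Maltodextrin against Control, Ube2g2 was at -0.36, Ube2n at -0.40 and Ube2e2 at -0.31.

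Other genes of the relay were counted from lists. Of all genes, 28.3% were called higher and 30.4% lower in FT, 24.3% and 26.2% in Bupropion, and 30.9% and 35.5% in Desipramine. The shares were 25.7% and 25.8% in Probiotics against Maltodextrin, and 26.1% and 27.2% in Maltodextrin against Control. Without scaling the shares were 47.5% and 14.8% in FT, 49.2% and 20.3% in Desipramine, and 35.6% and 13.3% in Probiotics. Whether the lists here and in the next paragraph differ from them was not tested. Of 31 proteasome subunit genes, 25 were called lower and 3 higher in FT (median log2 change -0.24), 20 lower and 6 higher in Desipramine (-0.22) and 23 lower and 1 higher in Probiotics against Maltodextrin (-0.22). Bupropion ran differently, with 7 lower and 14 higher (0.06), and Maltodextrin against Control had 8 of each. Without scaling the lower and higher counts were 10 and 6 in FT (median -0.04), 10 and 12 in Desipramine (-0.00094) and 18 and 3 in Probiotics (-0.12). Psma5 and Psmc4, subunits of the proteasome's core and its regulatory cap, had the smallest p of any listed gene in FT, at -0.75 and -0.60. Psmb2, another core subunit, was at -0.82 in Desipramine, and Rps27a, which encodes ubiquitin fused to a ribosomal protein, was at 0.67. Of 13 genes for ubiquitin and its relatives, 6 were called lower and 2 higher in FT, 8 and 4 in Desipramine, and 1 and 4 in both Bupropion and Maltodextrin against Control. Sumo2, a ubiquitin-like modifier, was at -0.62 in Probiotics against Maltodextrin, where 10 of the 13 were called lower (median -0.26). Without scaling, 5 of the 13 were called lower and 6 higher in FT (median 0.17). The lower and higher counts were then 4 and 5 in Desipramine (-0.02), and 6 and 1 in Probiotics (-0.16).

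Of 10 E1 genes, 3 were called higher and 3 lower in FT, 4 and 4 in Bupropion, 5 and 4 in Desipramine, 2 and 4 in Probiotics against Maltodextrin, and 3 and 3 in Maltodextrin against Control. Uba1, the main ubiquitin E1, fell in Maltodextrin against Control (-0.52). Of 40 ligase genes, 19 were called higher and 12 lower in FT, 10 and 10 in Bupropion, 18 and 16 in Desipramine, 12 and 8 in Probiotics against Maltodextrin, and 18 and 10 in Maltodextrin against Control. Syvn1, a ligase of the endoplasmic reticulum, was at 0.42 in Bupropion and 0.66 in Probiotics against Maltodextrin, and at -0.40 in Maltodextrin against Control. Of 23 deubiquitinases, which take ubiquitin off again, 11 were called higher and 8 lower in FT, 6 and 6 in Bupropion, 13 and 6 in Desipramine, 4 and 6 in Probiotics against Maltodextrin, and 11 and 6 in Maltodextrin against Control. Of 7 E2-fold genes with other names, 1 was called higher and 3 lower in FT, 3 higher in Bupropion, 2 higher and 3 lower in Desipramine, 1 and 4 in Probiotics against Maltodextrin, and 1 and 2 in Maltodextrin against Control. Without scaling the ligases split 25 higher and 8 lower in FT and 24 and 10 in Desipramine. The deubiquitinases then split 14 and 3 in FT and 14 and 4 in Desipramine. The E1 genes split 7 higher and 1 lower in FT and 7 and 2 in Desipramine. The E2-fold genes split 3 higher and 1 lower in FT, 5 and 1 in Desipramine, and 2 and 1 in Probiotics.

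Some members have near copies in the genome among which reads can be split, so their counts carry that uncertainty. RefSeq names 53 pseudogenes after 12 of the members, among them 19 after Ube2v1, 9 after Ube2n, 4 each after Ube2c and Ube2s, 3 after Ube2l3, 2 each after Ube2e3 and Ube2g1, and 1 each after Ube2d2, Ube2d3, Ube2m and Ube2v2. Ube2v1 and Ube2n, which have the most copies, are among those that fell under every drug. As a description, 129 other genes with at least 5 named pseudogenes, ribosomal protein genes left aside, were called higher in 19.4% and lower in 55% of cases in FT (median -0.19) and in 24% and 51.2% in Desipramine (-0.17). In Bupropion the shares were 33.3% and 25.6%, in Probiotics against Maltodextrin 7.75% and 50.4%, and in Maltodextrin against Control 21.7% and 31.8%. With ribosomal protein genes kept, 197 such genes were at 25.9% and 38.1% in FT and 34.5% and 43.1% in Desipramine. They were then at 40.6% and 21.3% in Bupropion, 5.58% and 49.2% in Probiotics, and 33.5% and 20.8% in Maltodextrin against Control. All genes were at 28.3% and 30.4% in FT and 30.9% and 35.5% in Desipramine. In Bupropion all genes were at 24.3% and 26.2%, in Probiotics at 25.7% and 25.8%, and in Maltodextrin against Control at 26.1% and 27.2%. Of the 12 members with named copies, 4 were higher and 6 lower in FT and 4 and 4 in Desipramine. Their higher and lower counts were 4 and 4 in Bupropion, 1 and 7 in Probiotics, and 2 and 4 in Maltodextrin against Control. Of the 17 with none, 5 were higher and 7 lower in FT and 6 and 7 in Desipramine. For these the counts were 8 and 3 in Bupropion, 3 and 7 in Probiotics, and 1 and 3 in Maltodextrin against Control. The part of these copies in the results was not tested. Ube2m shares part of its span with Chmp2a, Ube2b with Cdkl3, Ube2l3 with Ydjc and Ube2d4 with Evi5, and no source used here says whether counting used strand, so reads of each pair may not be told apart.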

How the data were processed

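RNA from pooled tissue punches was made into stranded total RNA libraries and sequenced in paired ends, per the labels' protocols. The authors deposited raw read counts per gene, whole numbers with no normalization. STAR, HTSeq, FastQC and the rat build rn6 are named in the submitters' processing notes, and no source used here gives versions, the strand setting or the treatment of multiply mapped reads.

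For the 5 regions together, counts were summed over regions within each treatment replicate, with gene-wise offsets from each region's TMM-scaled library size, filtered for low counts with edgeR's filterByExpr and tested with edgeR 4.0.16 quasi-likelihood F tests in R 4.3.3 on all 30 sums. Each region was also fitted alone on 30 libraries. Interactions of treatment and region were fitted on the single libraries, and regions within Control with the replicate as a block. Adjustment was by Benjamini-Hochberg over the genes tested, with calls at 0.05. CPM values shown are TMM-scaled, and SE is the log2 change's standard error. Alternatives were DESeq2 1.42.0, limma 3.58.1 on equally weighted regions (prior count 2), other scaling, filters, regions and left-out replicates. No pair of the 600 within-group library pairs agreed within sampling noise (lowest chi-square per degree of freedom 1.36). The FT against Control test, over the 5 regions and in PLC, was also run on simulated counts. Those had a fixed spread and no structure of pools or replicates, and did not cover the interaction or region tests.

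The members and lists were chosen with earlier results of these data known. Replicate values are given for the 3 members with the largest change in each direction among those called over the 5 regions and in the same direction in at least 3 of them, for those called alike in all 5, and for other members whose values stand out, chosen after seeing them. Regional levels are given for the 6 members with the widest range in Control, and pathway genes for the 2 with the smallest p per comparison. Of these, 1 member and 1 pathway gene are not reported here by name, and stay in the counts. Of the 29 symbols, 28 are current in RefSeq and 1 is older (Ube2d4, now Ube2d2b). Ube2e1, Ube2o, Ube2q2, Ube2r2, Ube2u and Ube2w were not analysed here. Promoters and pseudogene names are RefSeq's, from build GRCr8, and coordinates are of that build alone.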

Additional observations from a re-analysis of the deposited data

Results flagged for a closer look

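In 108 groups of 5 replicate values, 6 treatments for each of 18 members, 7 held a replicate that lay far from the others of its group by Dixon's test, where chance flags about 1 in 20 groups. FT replicate 1 stood high in Ube2d1, at 69.1 TMM-scaled CPM averaged over the 5 regions, and in Ube2g1, at 89.1 CPM. FT replicate 5 stood high in Ube2ql1, at 127.3 CPM. Bupropion replicate 5 stood high in Ube2n, at 141.7 CPM, replicate 2 low in Ube2z, at 82.1 CPM, and replicate 1 high in Ube2l3, at 243.2 CPM. Maltodextrin replicate 2 stood low in Ube2n, at 151.1 CPM. The FT replicate 1 libraries are also the shallow ones of that group in these regions, at 3797720 to 4807308 counts, against 4917517 to 12340879 in its other libraries, and the part of depth in these values was not tested.

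Members called higher in some region and lower in another, with an adjusted p of the interaction between treatment and region under 0.05 (edgeR's quasi-likelihood test), are given with their highest and lowest called regional log2 changes. In Bupropion against Control these were Ube2b (0.43 in PLC and -0.16 in NACShell, edgeR adjusted p = 2.03e-12), Ube2d3 (0.47 in PLC and -0.32 in NACShell, edgeR adjusted p = 2.75e-11) and Ube2g1 (0.28 in mPOA and -0.35 in NACShell, edgeR adjusted p = 1.69e-10). In the same comparison they were also Ube2j2 (0.29 in PLC and -0.19 in Raphe, edgeR adjusted p = 1.01e-07), Ube2l3 (0.18 in NACShell and -0.30 in Raphe, edgeR adjusted p = 4.9e-11) and Ube2v2 (0.47 in PLC and -0.31 in NACShell, edgeR adjusted p = 4.07e-14). In Desipramine against Control these were Ube2l3 (0.19 in NACShell and -0.34 in mPOA, edgeR adjusted p = 5.44e-09), Ube2s (0.29 in Raphe and -0.30 in NACShell, edgeR adjusted p = 2.61e-06) and Ube2v2 (0.18 in Raphe and -0.19 in CGC, edgeR adjusted p = 2.6e-05). In Probiotics against Maltodextrin these were Ube2d3 (0.17 in CGC and -0.39 in PLC, edgeR adjusted p = 2.45e-08) and Ube2l3 (0.28 in CGC and -0.16 in PLC, edgeR adjusted p = 9.52e-11). In Maltodextrin against Control these were Ube2d3 (0.29 in PLC and -0.24 in NACShell, edgeR adjusted p = 8.45e-08), Ube2e3 (0.27 in mPOA and -0.28 in NACShell, edgeR adjusted p = 1.34e-09) and Ube2j2 (0.24 in PLC and -0.26 in CGC, edgeR adjusted p = 1.59e-06). In the same comparison they were also Ube2l6 (0.39 in NACShell and -0.43 in CGC, edgeR adjusted p = 0.00814), Ube2m (0.41 in Raphe and -0.33 in NACShell, edgeR adjusted p = 2.98e-15) and Ube2n (0.14 in PLC and -0.42 in NACShell, edgeR adjusted p = 3.04e-08). The rest in that comparison were Ube2ql1 (0.26 in Raphe and -0.42 in NACShell, edgeR adjusted p = 3.51e-10) and Ube2v2 (0.41 in PLC and -0.36 in CGC, edgeR adjusted p = 5.2e-13).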

How the results depend on the processing

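Across 186 recomputed counts of called members, 182 stayed within 1.5 times the value reported. The 4 others were FT against Desipramine fitted on the groups compared alone (8, against 17), Maltodextrin against Control fitted so (17, against 10), and, without scaling of library totals, FT against Bupropion (16, against 25) and Bupropion against Desipramine (16, against 26). The cause was not tested. Leaving out single replicates gave 21 to 23 called members in FT, 17 to 19 in Bupropion, 20 to 22 in Desipramine, 17 to 20 in Probiotics against Maltodextrin and 9 to 10 in Maltodextrin against Control. Between drugs it gave 24 to 27 for FT against Bupropion, 15 to 21 for FT against Desipramine and 25 to 26 for Bupropion against Desipramine, and 26 to 28 for regions in Control.

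Of the log2 changes of members named by the rule for replicate values, 2 lost their call, both in Maltodextrin against Control: Ube2d2 without Raphe (0.12) and Ube2g1 over all 10 regions (0.08). None of the changes that the rule names turned its sign in the settings run; the other members that did are named with their values in the results above. Over all 10 regions the Probiotics split was 10 higher and 8 lower. Alternatives without scaling, without Raphe, and without mPOA and NACShell were chosen after seeing the data. With DESeq2, 22, 19, 21, 20 and 12 members were called in FT, Bupropion, Desipramine, Probiotics and Maltodextrin in that order.

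Replicate numbers are shared between groups, but the numbers did not pair the samples throughout. Number 5 deviated together in the 4 comparisons with Control (correlations of the deviations from 0.162 to 0.293, each above those with other numbers). In Probiotics against Maltodextrin number 5 was at 0.0434, and the other numbers ran from -0.0393 to 0.113. With the replicate number as a block, 22 members were called in FT, 19 in Bupropion, 21 in Desipramine, 20 in Probiotics against Maltodextrin and 12 in Maltodextrin against Control, and 25, 17 and 26 in the drug comparisons. Counts in low members such as Ube2c and Ube2t, under 1 CPM, limit what can be called for them.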
